A study of Mus musculus with 20 samples.

Results

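The ribosomal protein genes of the cytosol were followed in whole testis of 20 male mice, on Agilent arrays that carried 20868 probes for 16966 named genes. They were found by symbol, as Rpl, Rplp or Rps followed by a number, together with Rpsa, and kinases of the Rps6k family and pseudogenes were left out. This gave 71 genes on 76 probes, of which 45 encode proteins of the large subunit and 26 proteins of the small subunit. The probe with the highest mean signal over all arrays stood for a gene. The 4 groups held 5 mice each: Xpc-/- mice given B[a]P, Xpc-/- control mice, Wt mice given B[a]P and Wt control mice, all on the C57BL/6 background. B[a]P, or benzo(a)pyrene, is a polycyclic aromatic hydrocarbon whose metabolites bind to DNA, and Xpc encodes a protein that recognises such lesions in nucleotide excision repair. Exposed mice received 13 mg B[a]P per kg body weight once by gavage, control mice received only sunflower oil, and every testis was taken on day 4. Each mouse had its own array with the sample in Cy5, against a Cy3 pool of 3 further unexposed Wt mice. Values are normalised log2 signals, and all changes are log2 differences.

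The cytosolic ribosome translates mRNA with a small subunit, which reads the codons, and a large subunit, which joins the amino acids. Each subunit is built in the nucleolus from ribosomal RNA and 1 copy of most of its proteins, so that the proteins are needed in nearly equal amounts. Their mRNAs belong to the most abundant of any cell, and most start with a C inside a run of pyrimidines, the terminal oligopyrimidine or TOP motif, through which the kinase mTOR and the binding protein Larp1 control their translation. In testis, germ cells silence the X chromosome during meiosis, and several X-linked ribosomal protein genes have autosomal copies that are used in these cells. Free Rpl5 and Rpl11 bind Mdm2 and so stabilise p53 when ribosome assembly is disturbed.

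The start sites of these genes are shown first, because most members with a known start region hold a run of pyrimidines near it. Genes that passed the test after B[a]P exposure include carriers of such a run in both directions. RefSeq start regions of the build GRCm38.p6 were at hand for 58 of the 71 genes, and Rpl7, Rpl29 and Rplp1 were not among them. A tract, defined here as a C followed by at least 7 further C or T on the transcribed strand, lay between 20 bases before and 50 bases after a start in 44 of these 58 genes (75.9%), against 22.7% of all 27025 genes of the same table. Counted over start sites, the share was 66.7% of 69 member sites and 20.0% of 32851 sites in all. This search is wider than the TOP motif, because the tract did not have to include the start itself. The windows of 30 bases below have the tract in capitals. The first 3 genes were higher after B[a]P exposure and the last was lower. They lie at chr7:45128722-45128751 (minus strand), chr14:18270969-18270998 (minus strand), chr17:33955646-33955675 (minus strand) and chr7:4792955-4792984 (plus strand).
Rpl13a: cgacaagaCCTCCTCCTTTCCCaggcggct
Rpl15: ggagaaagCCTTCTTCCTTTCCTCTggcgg
Rps18: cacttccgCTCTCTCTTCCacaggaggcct
Rpl28: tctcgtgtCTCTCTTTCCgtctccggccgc
The tract ran over 14, 17, 11 and 10 bases in these 4 genes. The letters TTCCGG, the core of the site bound by ETS factors such as GABP, were also searched on both strands over the whole 300 bases of each region, without overlap with the tract being excluded. They were present at 49.3% of member start sites and at 14.9% of all start sites. For display, only copies before a listed start were considered, and the nearest of these is shown. That of Rpl19 lay at chr11:98026660-98026689 (plus strand) and that of Rpsa at chr9:120127685-120127714 (plus strand), with the letters in capitals.
Rpl19: acttagcgtgacTTCCGGctacccagagga
Rpsa: gccagaggctttTTCCGGagcggaagttct
Both genes were higher after B[a]P exposure. A match in these windows is a description of the letters and not of binding.

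As a group the members were among the brightest features of the array. In the order of mean signal over all probes their median lay at percentile 98.3, and 64 of the 71 were in the brightest 25% of probes, 2 (Rpl14 and Rpl37) in the dimmest 25% and 5 in between. For 5 members the mean log2 signal was above 15, where the ceiling of a 16 bit scanner lies at 16, so changes of these genes may be compressed. Bright probes were called more often than dim ones on these arrays, and shares are therefore also given for the brightest 25%. The median SD between mice of a group was 0.191 over members, 0.190 over all probes and 0.213 over the brightest 25%. The probe for Xpc checked the genotype: it was lower in Xpc-/- mice by a log2 difference of -0.70 (limma, adjusted p = 0.000298), with a highest Xpc-/- value of 6.99 and a lowest Wt value of 7.10. The testis was represented as labelled, since 11 of 13 measured spermatocyte markers and 9 of 10 measured markers of elongating spermatids were in the brightest 25%. In a principal component analysis 2 arrays were outlying: Xpc-/- control 1 scored 38.4 and Xpc-/- control 2 scored 40.5 on component 1, and the remaining 18 arrays between -18.7 and 8.10. They are called the arrays apart below, and results that rest on them are given with and without them.

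B[a]P exposure changed 16 of the 71 ribosomal protein genes over both genotypes, 11 upward and 5 downward (limma over all probes, Benjamini-Hochberg adjusted p below 0.05). The largest increases were those of Rpl7 and Rpl13a, each 1.48-fold, followed by Rps3, Rpl19, Rpl5 and Rpl15 at 1.32-fold to 1.37-fold. The decreases comprised Rps13, Rplp1, Rps16, Rps19 and Rpl28, at 0.754 to 0.849 of the control level. The share of members called higher was 15.5%, against 3.57% of all probes and 10.6% of the brightest 25%. The share called lower was 7.04%, against 2.12% of all probes and 5.48% of the brightest 25%. Among the 64 members among the brightest 25% the shares were 17.2% higher and 7.81% lower. At an unadjusted p below 0.05, 29 members differed (40.8%), against 18.5% of all probes. This share was not computed for the brightest 25%, where most members lie. Since increases and decreases were present together, the median change over all 71 members was 0.01, beside -0.01 over all probes. The median size of the change without its sign was 0.153 in members, 0.0854 in all probes and 0.147 in the brightest 25%. Without the 2 arrays that stood apart, 12 members were higher and 17 lower, with 14 of the 16 calls kept, Rpl35a and Rps19 lost and 15 gained. The background was then 5.63% of all probes higher and 5.88% lower, and 15.2% and 13.6% of the brightest 25%. Normalisation by cyclic loess gave 10 higher and 7 lower, so that the share of calls that were increases was 58.8% in place of 68.8%.

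**Figure D1:**
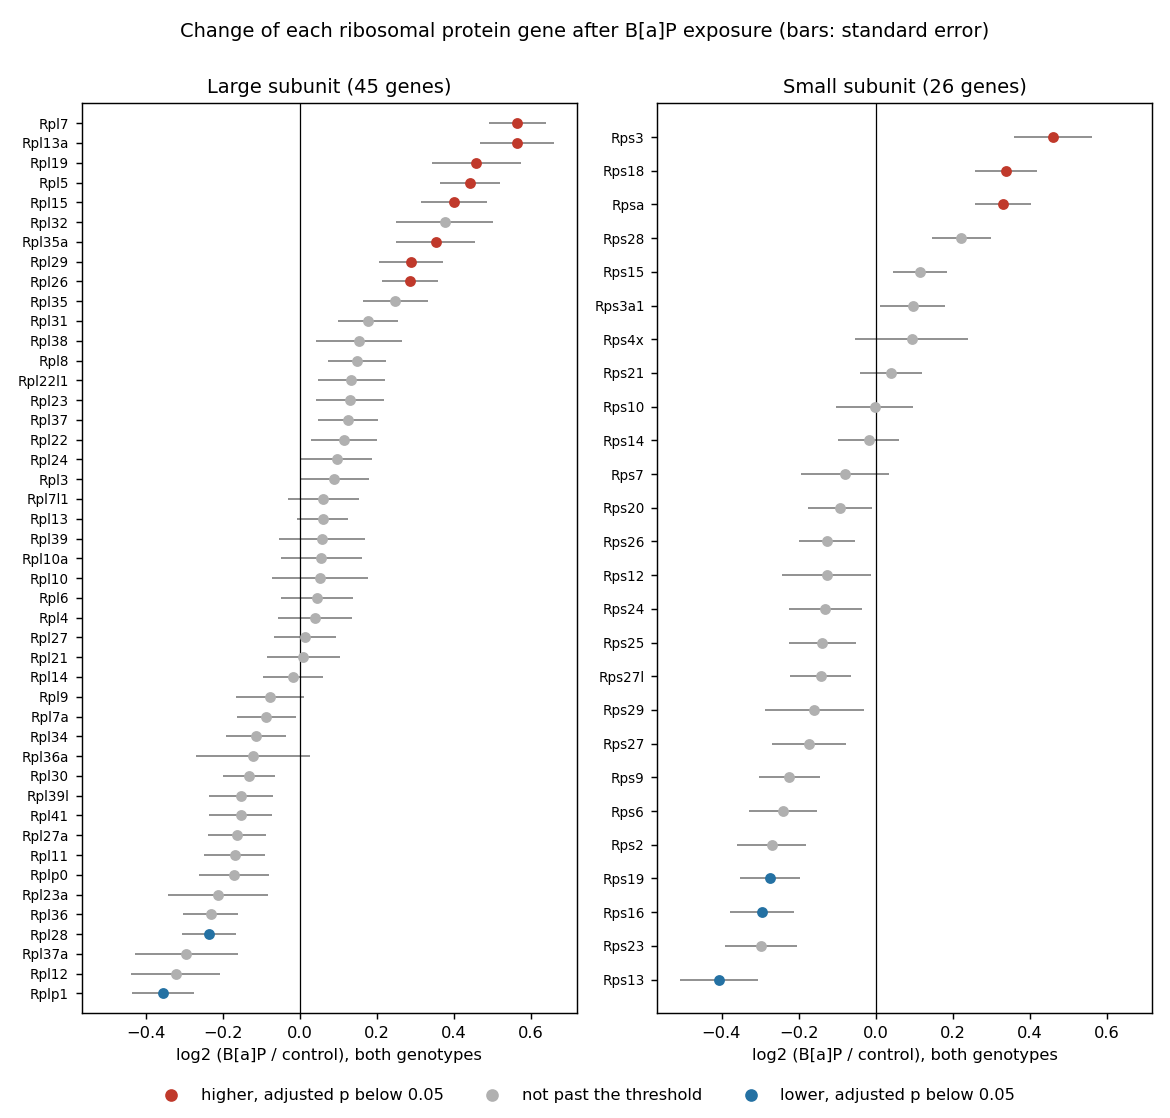
Log2 change after B[a]P exposure (horizontal axis, average over Xpc-/- and Wt mice) of each ribosomal protein gene of the large (left) and small (right) subunit, with the standard error as bars. Red points were called higher (11), blue points lower (5), and grey points did not pass the test. The large subunit genes are spread around a median of 0.06 and the small subunit genes around -0.13.

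Rpl7, a protein of the large subunit, separated the groups most clearly. Its log2 signal was 13.33, 13.35, 13.29, 13.51 and 13.33 in Xpc-/- B[a]P mice, against 12.63, 13.03, 12.92, 12.82 and 12.75 in Xpc-/- control mice. In Wt B[a]P mice it was 13.43, 13.43, 13.40, 13.25 and 13.36, against 12.83, 12.95, 12.92, 12.43 and 12.76 in Wt control mice. Every exposed mouse was above every control mouse, which held for no other member and for 0.383% of all probes and 1.42% of the brightest 25% in this direction (0.0288% and 0.115% in the other direction, with no member). The change was 0.56 ± 0.07 (SE, 10 mice against 10; limma, adjusted p = 5.44e-05).

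Rpl13a, a large subunit protein that can leave the ribosome in human cells to silence mRNAs, changed by the same amount, 0.56 ± 0.10 (SE; limma, adjusted p = 6e-04). It measured 13.03, 12.80, 12.86, 12.97 and 12.54 in Xpc-/- B[a]P mice, against 11.67, 12.25, 12.61, 12.38 and 12.41 in Xpc-/- control mice. The Wt B[a]P mice had 12.90, 12.89, 13.17, 12.54 and 12.88, against 12.44, 12.36, 12.35, 12.15 and 12.35 in Wt control mice. In Xpc-/- mice exposed mouse 5 lay below control mouse 3, whereas the Wt groups did not overlap. The lowest control value, 11.67, came from Xpc-/- control 1, one of the arrays that stood apart, and without these 2 arrays the change was 0.46 (adjusted p = 0.000399).

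Rpl5 and Rpl11 form a particle with the 5S ribosomal RNA that is built into the large subunit as a unit. Rpl5 had values of 13.69, 13.86, 13.85, 14.07 and 13.69 in Xpc-/- B[a]P mice, against 13.35, 13.69, 13.35, 13.34 and 13.35 in Xpc-/- control mice. In Wt B[a]P mice it had 13.78, 13.83, 13.96, 13.58 and 13.91, against 13.37, 13.35, 13.53, 13.09 and 13.40 in Wt control mice. In Xpc-/- mice only control 2 reached the lowest exposed values, and all exposed Wt mice were above the Wt controls. The change was 0.44 ± 0.08 (SE; limma, adjusted p = 0.000701), and without the 2 arrays apart it was 0.48 (adjusted p = 0.00014). Its partner Rpl11 had a change of -0.17 ± 0.08 (SE) that did not pass the test over all arrays (adjusted p = 0.241) and did so without the 2 arrays, at -0.24 (adjusted p = 0.0371). The 2 partners thus had values of opposite sign, and the difference between them was not tested.

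The other members that rose in the large subunit were Rpl19, whose long helix bridges to the small subunit, Rpl15, Rpl35a, Rpl29 and Rpl26. In 10 exposed mice Rpl19 ranged from 14.76 over a median of 15.30 to 15.39, against 14.14, 14.90 and 15.13 in 10 control mice, so the ranges overlapped between 14.76 and 15.13. Its change was 0.46 ± 0.11 (SE; limma, adjusted p = 0.0142). Without the 2 arrays apart it was 0.32 (adjusted p = 0.0328), and in Xpc-/- mice alone it was then 0.08 (adjusted p = 0.84), against 0.36 (adjusted p = 0.305) over all arrays. Rpl15 ranged from 12.42 to 12.99 in exposed mice, with a median of 12.59, and from 11.76 to 12.52 in control mice, with a median of 12.26. The changes of Rpl15, Rpl35a, Rpl29 and Rpl26 were 0.40, 0.35, 0.29 and 0.29. Mutations in the human counterparts of Rpl15, Rpl35a and Rpl26 have been found in Diamond-Blackfan anaemia, a disorder of red cell formation. The calls of Rpl35a and Rpl29 were lost when any of 10 and 9 single mice of the 20 was left out, and that of Rpl35a also depended on the arrays apart: Xpc-/- control 1 and 2 had 11.99 and 12.45, against 12.94 to 12.98 in the remaining Xpc-/- controls, and without both the change was 0.20 (adjusted p = 0.0876).

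In the small subunit, Rps3, Rps18 and Rpsa rose. Rps3 lines the channel through which mRNA enters the ribosome. Its log2 signal was 11.29 to 11.71 in exposed mice (median 11.51), against 10.52 to 11.33 in control mice (median 11.17), and it changed by 0.46 ± 0.10 (SE; limma, adjusted p = 0.00557). Both arrays that stood apart gave its lowest values, 10.52 and 10.59, together with Wt control 4 at 10.61, and without those 2 arrays the change was 0.33 (adjusted p = 0.0114). Rpsa, also known as the laminin receptor precursor, sits on the back of the small subunit. It was at 14.02, 14.22, 14.26, 14.36 and 14.10 in Xpc-/- B[a]P mice, against 13.69, 13.84, 13.84, 14.01 and 13.81 in Xpc-/- control mice, with no overlap. In Wt B[a]P mice it was at 14.22, 14.17, 14.21, 14.19 and 14.26, against 13.91, 13.90, 14.24, 13.68 and 13.80 in Wt control mice, of which mouse 3 fell inside the exposed range. Its change was 0.33 ± 0.07 (SE; limma, adjusted p = 0.00583). Rps18, in the head of the small subunit, changed by 0.34 ± 0.08 (SE; adjusted p = 0.0102) on its bright probe, with 15.16 to 15.62 in exposed and 14.75 to 15.37 in control mice. A second, dim probe for Rps18 at percentile 11.2 had a change of -0.14 ± 0.08 (SE; adjusted p = 0.335). With the probes of a gene averaged, the value for Rps18 was 0.10 (adjusted p = 0.473), so its increase rests on 1 of 2 probes.

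Rps13 and Rplp1 fell most. Rps13, a small subunit protein that reaches across to the large subunit, had values of 13.17, 13.38, 13.45, 13.62 and 13.73 in Xpc-/- B[a]P mice, against 13.17, 13.26, 13.91, 13.87 and 14.02 in Xpc-/- control mice. In Wt B[a]P mice it had 13.42, 13.14, 13.59, 13.43 and 13.10, against 13.89, 14.06, 13.96, 14.03 and 13.92 in Wt control mice. In Xpc-/- mice controls 1 and 2 were as low as the exposed mice and controls 3 to 5 were above all of them, while the Wt groups did not overlap. The change over both genotypes was -0.41 ± 0.10 (SE; limma, adjusted p = 0.0137), and it was -0.55 (adjusted p = 6.25e-05) without those 2 arrays. Rplp1 is part of the stalk of the large subunit, the flexible arm that recruits elongation factors. It measured 14.96, 14.73, 14.55, 14.66 and 14.67 in Xpc-/- B[a]P mice, against 15.09, 14.68, 14.86, 15.04 and 15.11 in Xpc-/- control mice. The Wt B[a]P mice had 14.87, 14.68, 14.63, 14.54 and 14.28, against 14.98, 14.99, 15.15, 15.20 and 15.02 in Wt control mice. The Xpc-/- groups overlapped and the Wt groups did not, and the change was -0.36 ± 0.08 (SE; limma, adjusted p = 0.00652). Rplp0, which anchors the stalk, had -0.17 (adjusted p = 0.311) on its brighter probe and -0.01 (adjusted p = 0.96) on a second bright probe at percentile 95.0. Rplp2 was not analysed here.

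The remaining decreases were close to the threshold, and the calls of Rps16, Rps19 and Rpl28 were lost when any of 7, 9 and 16 single mice of the 20 was left out. Rps16, whose tail reaches the transfer RNA in the small subunit, ranged from 12.91 to 13.67 in exposed mice, against 13.47 to 13.81 in control mice, and changed by -0.29 ± 0.08 (SE; limma, adjusted p = 0.0308). Rps19, the gene first linked to Diamond-Blackfan anaemia in humans, ranged from 9.74 to 10.29 in exposed mice, against 10.08 to 10.59 in control mice, with a change of -0.27 ± 0.08 (SE; adjusted p = 0.0334). Both ranges overlapped. Rpl28, a large subunit protein without a bacterial counterpart, ranged from 12.00 to 12.39 in exposed mice, against 12.26 to 12.58 in control mice, with a change of -0.24 ± 0.07 (SE; adjusted p = 0.0437). Rps6, the substrate of the S6 kinases, was at -0.24 ± 0.09 (SE; adjusted p = 0.113) and did not pass. It passed without the 2 arrays apart, at -0.26 (adjusted p = 0.0447). Of the genes gained in this way, Rpl12, which forms the base of the stalk and is named after its values were seen, had the lowest adjusted p, with a change of -0.50 (adjusted p = 0.000238), against -0.32 (adjusted p = 0.101) over all arrays.

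**Figure D2:**
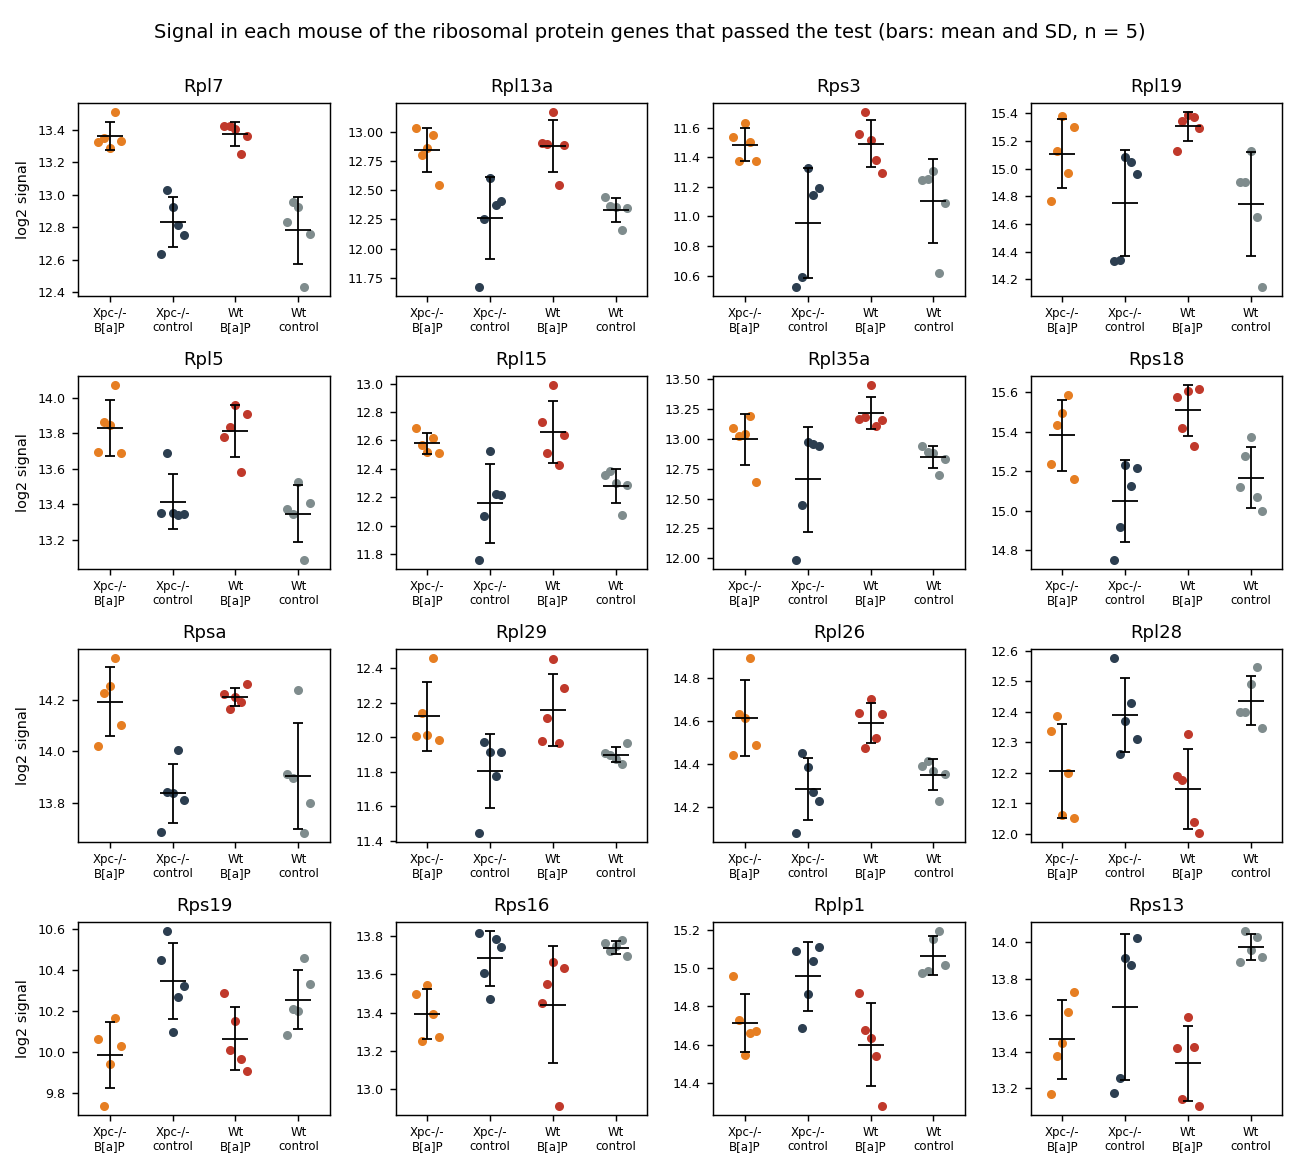
Normalised log2 signal (vertical axis, a separate scale for each gene) in each mouse for the 16 ribosomal protein genes called after B[a]P exposure, in order of their change. Points are mice, and black bars give the mean and SD of 5 mice in each group. Rpl7 is the gene in which all exposed mice lie above all controls, and the decreases are in the last 5 panels.

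Testis is a mixture of cells, and in whole tissue fewer cells of a type and less RNA per cell cannot be told apart. Of the marker genes measured beside the members, those of spermatocytes had 2 of 13 higher after B[a]P (Sycp3 and Sycp2), those of round spermatids 3 of 9 lower (Tssk2, Crem and Catsper4), and those of peritubular myoid cells 2 of 6 higher (Tagln and Cnn1). Elongating spermatid markers had 1 of 10 higher (Oaz3) and 1 lower (Hils1). None of the 9 spermatogonial, 12 Sertoli, 8 Leydig, 8 macrophage, 2 red blood cell and 4 epididymal markers passed the test. For comparison, 3.57% of all probes were higher and 2.12% lower, and among the brightest probes, as defined above, 10.6% and 5.48%. These brightest probes included 11 of the 13 spermatocyte, 6 of the 9 round spermatid, 9 of the 10 elongating spermatid and 3 of the 6 myoid markers. The marker counts are a description only, and a shift of a cell type was not tested. Relative to the Wt control mean, the average of the round spermatid markers lay between -0.22 and -0.03 in Xpc-/- B[a]P mice and between -0.05 and 0.08 in Xpc-/- controls. In Wt mice it lay between -0.24 and -0.05 after B[a]P and between -0.13 and 0.15 in controls. The average of the myoid markers was between 0.06 and 0.25 in Xpc-/- B[a]P mice, against -0.16 to -0.01 in Xpc-/- controls, and between 0.02 and 0.23 in Wt B[a]P mice, against -0.06 to 0.07 in Wt controls. The ranges of the myoid markers were apart in Xpc-/- mice and the others overlapped. The part of these cell types in the changes of the ribosomal protein genes was not tested.

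The large and the small subunit differed in the balance of their values. In the large subunit 8 of 45 genes rose (17.8%) and 2 fell (4.44%), and 28 had a positive value. In the small subunit 3 of 26 rose (11.5%) and 3 fell (11.5%), and 18 had a negative value. Over all probes 3.57% were higher and 2.12% lower, and in the brightest 25% of probes 10.6% and 5.48%. All 26 small subunit genes and 38 of the 45 large subunit genes were in this brightest part. Without the 2 arrays apart the balance of calls was not kept, since 8 large subunit genes were then higher and 9 lower, and 4 small subunit genes higher and 8 lower. The median change was 0.06 in the large and -0.13 in the small subunit, beside -0.01 in the brightest 25% of probes, and without the 2 arrays apart it was -0.03 in the large and -0.15 in the small subunit. The average of the large subunit genes minus that of the small subunit genes, set to a mean of 0 in Wt controls, was computed for each mouse. It was 0.16, 0.13, 0.01, 0.12 and 0.09 in Xpc-/- B[a]P mice, against -0.09, -0.02, 0.05, -0.001 and -0.01 in Xpc-/- control mice. In Wt B[a]P mice it was 0.09, 0.14, 0.10, 0.17 and 0.06, against 0.03, -0.01, -0.01, -0.02 and 0.01 in Wt control mice. Thus 9 of 10 exposed mice were above every control mouse, and Xpc-/- B[a]P mouse 3 was the exception. The mean over exposed mice exceeded that over control mice by 0.114, with 0.107 ± 0.048 in exposed mice and -0.007 ± 0.036 in control mice (SD, n = 10 each). This is a description of the lists, with no test. The average over all 71 members was -0.05 ± 0.03 in Xpc-/- B[a]P mice and -0.09 ± 0.15 in Xpc-/- control mice, and it was -0.01 ± 0.03 in Wt B[a]P mice and 0.00 ± 0.06 in Wt control mice (SD, n = 5 each).

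Within the genotypes taken singly fewer members passed. In Xpc-/- mice, B[a]P raised Rpl7 by 0.53 (limma, adjusted p = 0.0157) and Rpl13a by 0.58 (adjusted p = 0.0391). That is 2.82% of the members, against 0.585% of all probes higher and 1.84% of the brightest 25%. No member passed as lower in Xpc-/- mice with limma, against 0.0623% of all probes, although 7 were lower at an unadjusted p below 0.05, and the ordinary two-way analysis called 0 as well. In Wt mice Rpl7 rose by 0.60 (adjusted p = 0.0067) and Rpl5 by 0.47 (adjusted p = 0.0374), against 0.494% of all probes and 1.82% of the brightest 25%. Rps13 fell by 0.64 (adjusted p = 0.0285) and Rplp1 fell by 0.47 (adjusted p = 0.0447) in Wt mice, against 0.201% of all probes and 0.556% of the brightest 25%. Most of these calls were lost on the omission of any 1 of several mice. In Xpc-/- mice the call of Rpl7 was lost without Xpc-/- control 5 or Xpc-/- B[a]P 4 (highest adjusted p = 0.0579), and that of Rpl13a without any of 10 mice, namely Xpc-/- B[a]P 1 to 4, Xpc-/- control 1, 4 and 5 and Wt control 1, 2 and 5. In Wt mice the call of Rpl7 held without each of the 20 mice in turn. Those of Rps13 and Rpl5 were lost without Wt B[a]P 1, 2 or 5 or Wt control 1, 2, 4 or 5, that of Rpl5 also without Wt B[a]P 3, and that of Rplp1 without any of 14 mice, which included all Wt mice. Without the 2 arrays apart, Rpl5 and Rpl7 were higher in Xpc-/- mice (2.82% of members), against 1.62% of all probes and 4.77% of the brightest 25%. In the same mice 6 members (8.45%) were then lower (Rpl12, Rpl23a, Rpl37a, Rps13, Rps29 and Rps9), against 0.992% of all probes and 2.55% of the brightest 25%. Rps13 was then at -0.47 (adjusted p = 0.0351) in Xpc-/- mice, so that its decrease passed in both genotypes. In Wt mice 6 members were then called higher and 4 lower, against 1.22% and 0.925% of all probes, and 4.06% and 2.72% of the brightest 25%.

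The separation of single mice followed the same lines. In Xpc-/- mice all exposed mice were above all controls in 4 members (Rpl29, Rpl7, Rps3 and Rpsa) and below in 0, against 1.58% and 0.709% of all probes, and 4.37% and 0.901% of the brightest 25%. In Wt mice they were above in 6 members (Rpl13a, Rpl15, Rpl26, Rpl35a, Rpl5 and Rpl7) and below in 6 (Rpl28, Rpl7a, Rplp1, Rps13, Rps16 and Rps23), against 2.39% and 1.86% of all probes, and 6.27% and 4.14% of the brightest 25%. The exposed and control mice of the Xpc-/- and the Wt comparison are different animals, so the changes can be set side by side. Across the 71 genes the change in Xpc-/- mice and that in Wt mice correlated with r = 0.801 (Spearman's rho = 0.799), and 59 genes had the same sign. Without the 2 arrays apart r was 0.751 and 56 genes had the same sign. Genes are no independent replicates, and the correlation is given as a description only. Neither the correlation nor the share of equal signs was computed for all probes or the brightest 25%. All 16 called members had the same sign in both genotypes, which their choice by the average of both favours.

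**Figure D3:**
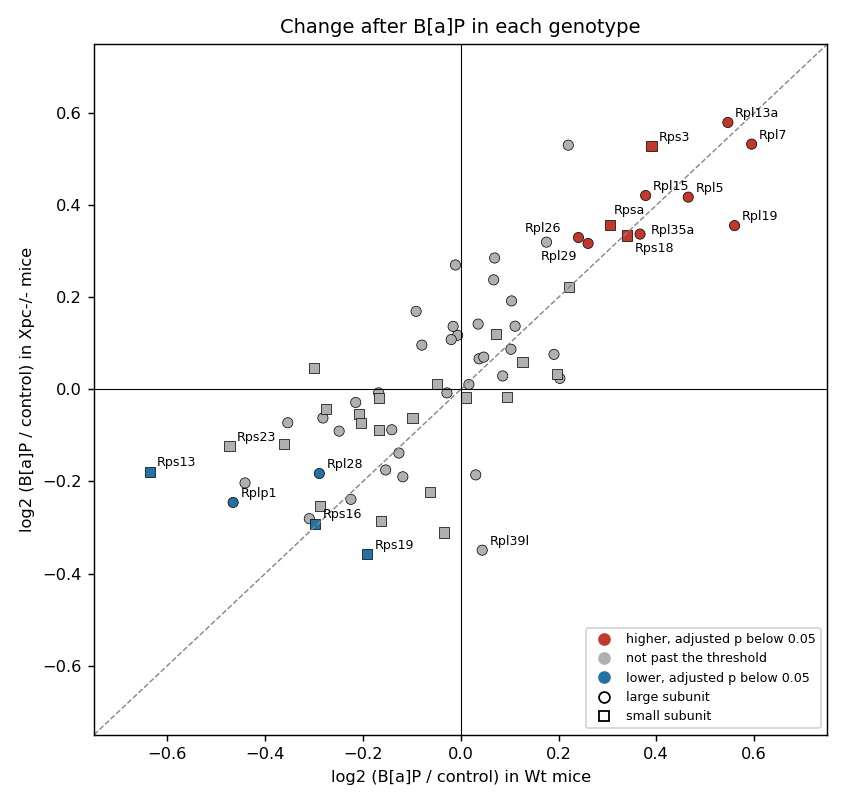
Log2 change after B[a]P exposure of each of the 71 ribosomal protein genes in Wt mice (horizontal axis) and in Xpc-/- mice (vertical axis), circles for the large and squares for the small subunit. Colours mark genes called over both genotypes, and the dashed line marks equal changes. Rpl7 and Rpl13a lie near the line at the upper right, Rps13 lies above it, and Rpl39l lies far below it.

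Neither genotype nor its interaction with exposure gave a call among the members. The genotype effect in control mice was called in 0 of 71 genes by limma (0 of 20868 probes in all) and in exposed mice in 0 (0.00479% of all probes and 0.0192% of the brightest 25% higher). Over both treatments it was also called in 0, against 0.00479% of all probes higher and 0.0144% lower, and 0.0192% of the brightest 25% in either direction. The interaction was called in 0 members and in 0 probes. At an unadjusted p below 0.05 there were 4, 8, 8 and 2 members in these 4 comparisons (5.63%, 11.3%, 11.3% and 2.82%), against 4.44%, 4.33%, 6.55% and 3.11% of all probes, and each alternative analysis that was run also called 0. The genotype difference of single members ranged from -0.35 to 0.22 in control mice and from -0.32 to 0.30 in exposed mice, with standard errors between 0.095 and 0.209 over the members.

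The members with the smallest p for genotype in control mice were Rpl23 with -0.31, Rps13 with -0.32 and Rpl4 with -0.29 (limma, adjusted p = 0.894 for each). For Rps13 and Rpl4 these values came from the arrays apart, since without them the differences were -0.04 and -0.04, and for Rpl23 it was then -0.22. In exposed mice they were Rpl39l with -0.32, Rpl31 with 0.27 and Rps15 with -0.24 (adjusted p = 0.987 for each). Over both treatments they were Rpl37a with -0.33, Rpl41 with -0.20 and Rpl10a with 0.24 (adjusted p = 0.744 for each), and without the arrays apart these were -0.14, -0.12 and 0.09. The interaction had its smallest p in Rpl39l with -0.39, Rps13 with 0.46 and Rps23 with 0.35 (adjusted p = 0.999 for each). Without the arrays apart the interaction was 0.17 for Rps13 and 0.14 for Rps23, whereas for Rpl39l it was -0.46.

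Rpl39l is the autosomal copy of the X-linked Rpl39 and is used in male germ cells. Its log2 signal was 9.10, 8.77, 9.19, 9.39 and 9.27 in Xpc-/- B[a]P mice, against 9.20, 9.58, 9.50, 9.57 and 9.62 in Xpc-/- control mice. In Wt mice it was 9.46, 9.55, 9.30, 9.57 and 9.46 after B[a]P, against 9.65, 9.49, 9.14, 9.49 and 9.35 in controls. Only Xpc-/- control 1 fell among the exposed Xpc-/- mice, and the Wt groups overlapped throughout. The change of -0.35 in Xpc-/- mice (adjusted p = 0.15) and of 0.04 in Wt mice (adjusted p = 0.961) did not pass, and neither did their difference, as given above. Its X-linked parent Rpl39 had a change of 0.06 over both genotypes (adjusted p = 0.844).

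None of the 4 X-linked members (Rpl10, Rpl36a, Rpl39 and Rps4x) was called over all arrays, and their changes lay between -0.12 and 0.09. Without the 2 arrays apart the positive values of Rpl10, Rpl39 and Rps4x became -0.10, -0.03 and -0.09, none of them called. Rpl36a was called lower without the 2 arrays apart, at -0.35 (adjusted p = 0.014). The other copies and their parents were not called either: Rpl22l1 had 0.13 and Rpl22 had 0.11, and Rps27l, a p53 target in human cells, had -0.14 beside -0.17 for Rps27. For Rpl7l1 the value was 0.06 (adjusted p = 0.792), while its relative Rpl7 rose. Rpl3 had 0.09 (-0.01 without the 2 arrays apart), and Rpl3l, Rpl10l and Rps27a were not analysed here.

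The arrays apart carried lower signals for many members. Relative to the Wt control mean, the average over members was -0.275 on Xpc-/- control 1 and -0.231 on Xpc-/- control 2, against -0.086 to 0.079 on the other 18 arrays. On both of these arrays 16 members were below all other arrays, among them Rpl10, Rpl36a, Rps4x, Rps3 and Rpl35a, and 2 were above (Rpl10a and Rps10). Over all probes 5.92% were below and 8.05% above in this way, and in the brightest 25% 12.5% and 14.8%. Leaving these arrays out made the increase of Rpl35a smaller and the decrease of Rps13 larger, as given above.

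**Figure D4:**
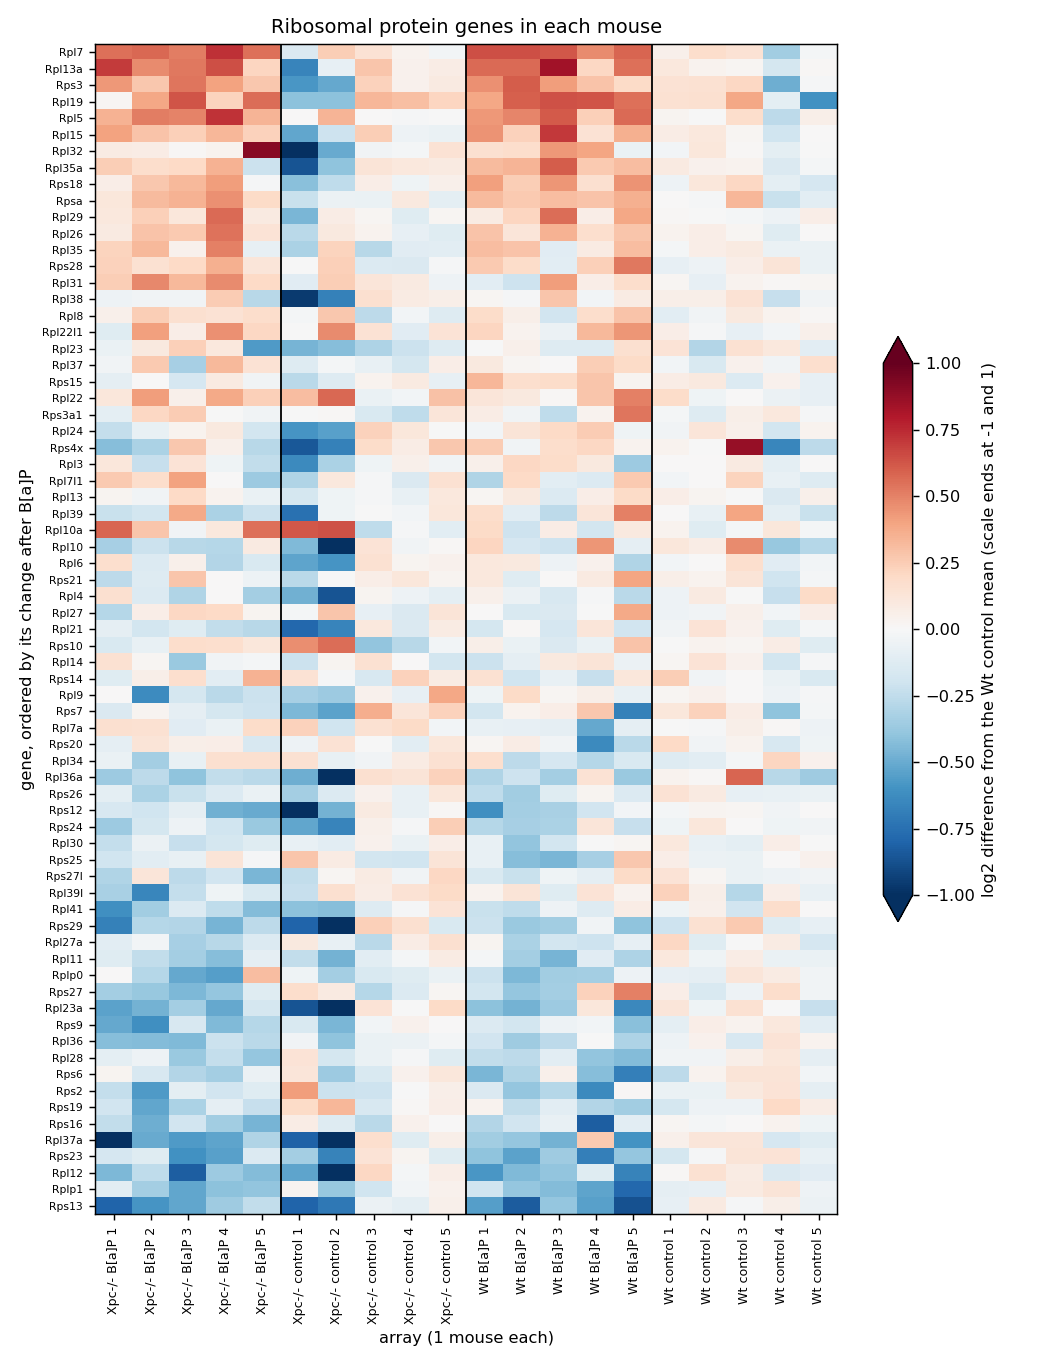
Log2 difference from the Wt control mean (colour, with the scale ending at -1 and 1) of each of the 71 ribosomal protein genes (rows, ordered by their change after B[a]P exposure) in each of 20 mice (columns, 5 per group). Exposed mice of both genotypes are mostly red at the top and blue at the bottom. The columns of Xpc-/- control 1 and 2 differ from those of the other controls, with averages of -0.275 and -0.231 over the members.

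The tract shown above was found in both directions of change. Of the 9 called genes with a start region that rose, 7 held the tract, and of the 4 that fell, 2 did, beside 35 of 45 members that were not called (77.8%). The start regions without a match were those of Rps3 and Rpsa among the increases and Rps13 and Rps16 among the decreases. The tract first found included the start in Rpl15, Rps18 and Rpl28. It began after the start in Rpl13a (base 3), Rpl26 (base 24), Rpl35a (base 25) and Rps19 (base 42). In Rpl19 and Rpl5 the tract ended before the start, so a tract here is not the same as a TOP motif. TTCCGG was found in 6 of the 9, in 1 of the 4 and in 26 of the 45. Numbers this small are given as a description only. Other mRNAs that carry a TOP leader, from a list of translation factors, had 3 of 17 higher and 1 lower. Of these 17 genes, 15 were in the brightest 25% of probes, where 10.6% of probes were called higher and 5.48% lower. Among all probes the shares were 3.57% and 2.12%. Eif3e (0.49) and Eif3h (0.38), subunits of the initiation factor that prepares the small subunit for mRNA, and Eif4b (0.31), which helps to unwind mRNA leaders, rose. Pabpc1, the poly(A) binding protein, fell by 0.34. The elongation factors Eef1a1, at -0.14, and Eef2, at 0.27, did not pass (adjusted p = 0.484 and adjusted p = 0.0666). The median of this list was 0.03.

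The machinery that builds ribosomes also had values in both directions. Of 58 measured assembly genes 4 rose and 3 fell, with a median of -0.02. Ncl, the nucleolar protein nucleolin, rose by 0.48 (limma, adjusted p = 0.000328), and Bop1, which takes part in processing the RNA of the large subunit, rose by 0.39 (adjusted p = 0.00412). Pa2g4 rose by 0.35, and Mrto4 was the fourth to rise. Lsg1, a GTPase that releases an export factor from the new large subunit, fell by 0.39 (adjusted p = 0.0048), and Riok1, a kinase of late small subunit assembly, fell by 0.35 (adjusted p = 0.021). Of 21 measured regulators of ribosomal protein genes, Larp1, which binds TOP mRNAs, rose by 0.33 (adjusted p = 0.00607), and Tia1, which binds TOP mRNAs under stress, fell by 0.31 (adjusted p = 0.0326). Mtor had -0.10 (adjusted p = 0.613), Myc had -0.03 (adjusted p = 0.874) and Mdm2 had 0.20 (adjusted p = 0.254). The 2 further cytosolic proteins whose symbols lie outside the pattern, Fau and Rpl36al, were not called.

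The ribosome of the mitochondrion, which is encoded by a separate set of nuclear genes, served for comparison. Of its 75 genes 2 rose (Mrps12 by 0.52 and Mrpl43 by 0.47) and 6 fell (Mrpl10, Mrpl53, Mrpl34, Mrpl35, Mrpl1 and Mrpl14, between -0.35 and -0.25), with a median of -0.04. The background was 3.57% of all probes higher and 2.12% lower, and 10.6% and 5.48% of the brightest 25%. Of the 71 cytosolic members 64 were in the brightest 25% of probes, against 45 of the 75 mitochondrial genes. Their shares of calls are therefore not on the same footing.

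Besides Rps18 and Rplp0, 3 members had a second probe. For Rpl23 the values were 0.13 and 0.02, for Rpl27a -0.16 and -0.04, and for Rps12 -0.13 and -0.01, with the brighter probe first, and none passed the test. In each of the 5 genes the dimmer probe had the smaller size of change. Ribosomal protein genes have many processed pseudogenes, and the gene table used here lists 321 of them under Rpl and Rps symbols. The probe sequences were not used here, so how much a probe reads from such copies was not tested.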

How the data were processed

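The authors hybridised Cy5 labelled testis RNA and a Cy3 reference pool of 3 unexposed Wt mice to Agilent 22K arrays, read spots with Imagene 8.0.1, took the natural log, applied quantile normalisation to all scans, corrected sample for reference signals and averaged repeated spots. The deposited natural log (ln) values of 20868 probes, which keep a signal level, were divided by the natural logarithm of 2. No probe was filtered out. Groups came from the sample labels. A model with 1 mean per group was fitted to all probes with limma 3.58.1 in R 4.3.3, 7 contrasts were tested, with Benjamini-Hochberg adjustment across the whole table (threshold 0.05). Of the 71 members, 70 matched the current gene table. The number of arrays limits the precision. The fit was tested on simulated data. Members and gene lists were chosen with earlier results of these data known. Named were all called members, the 3 smallest p per genotype comparison without calls, the stalk, the 5S particle, paralogs with parents, X-linked members, genes whose probes disagree and, per pathway list, up to 5 called genes. Start regions came from RefSeq (GRCm38.p6). Alternatives were the ordinary two-way analysis of the study's methods, an intensity trend, median centring, cyclic loess, removal of the dimmest 25% of probes, array weights, a replicate block, averaged probes, omission of the 2 arrays apart and of each mouse.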

Additional observations from a re-analysis of the deposited data

Results flagged for a closer look

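Of 164 groups of 5 values examined (38 named genes and the averages over members), 9 held a mouse that lay far from the other 4, where chance gives about 1 in 20 groups. Called members were involved 4 times. Rpl5 was 13.69 in Xpc-/- control 2, against 13.34 to 13.35 in the other Xpc-/- controls, and this array is one of those that stood apart. Rpl7 was 13.51 in Xpc-/- B[a]P 4, against 13.29 to 13.35, Rpl35a was 13.45 in Wt B[a]P 3, against 13.11 to 13.19, and Rps16 was 12.91 in Wt B[a]P 4, against 13.45 to 13.67. Without that mouse Rps16 no longer passed the test. The X-linked Rpl39 had such a mouse in both Xpc-/- groups, with 11.26 in Xpc-/- B[a]P 3, against 10.56 to 10.69, and with 10.13 in Xpc-/- control 1, against 10.83 to 10.99. Its copy Rpl39l was 9.20 in Xpc-/- control 1, against 9.50 to 9.62. Rpl3 was 11.33 in Wt B[a]P 5, against 11.75 to 11.91, and Rpl31 was 7.28 in Wt control 2, against 7.38 to 7.40. No member moved without overlap in opposite directions in Xpc-/- and Wt mice.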

How the results depend on the processing

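No called result changed its sign. Without Xpc-/- control 1 and 2 the sign turned in 11 members, none called with or without these arrays, and so did the median of the large subunit, at -0.03 in place of 0.06. Of the 16 members called over both genotypes, 9 kept their call under all 29 alternatives (Rpl13a, Rpl15, Rpl26, Rpl5, Rpl7, Rplp1, Rps13, Rps3 and Rpsa). Rpl28 lost it under 17, Rpl35a under 13, Rpl29 under 12, Rps19 under 11 and Rps16 under 7, while Rpl19 lost it only in the ordinary two-way analysis and Rps18 only with averaged probes. For the number lower over both genotypes, 5 in the analysis as reported, an intensity trend gave 3, array weights 18 and the omission of Xpc-/- control 1 and 2 gave 17. In the large subunit these were 1, 8 and 9 in place of 2, and in the small subunit array weights gave 10 and the omission 8 in place of 3. The ordinary analysis called 5 large subunit genes higher in place of 8. Within Xpc-/- mice, where 2 were higher and 0 lower, the ordinary analysis, the trend and cyclic loess gave 1 higher, and array weights gave 4 higher and 2 lower, while the omission gave 6 lower. Within Wt mice, where 2 were higher and 2 lower, the trend and cyclic loess gave 1 and 1, array weights and the omission 6 and 4, and the ordinary analysis 0 lower. The cause of these differences was not tested. Leaving out each mouse in turn gave 9 to 13 members higher and 2 to 12 lower over both genotypes (2 without Wt control 4 or Xpc-/- control 5, 12 without Xpc-/- control 2). It gave 0 to 4 higher and 0 lower in Xpc-/- mice, and 1 to 3 higher and 0 to 3 lower in Wt mice. In the large subunit it gave 6 to 9 higher and 1 to 5 lower with a median of 0.03 to 0.08, and in the small subunit 3 to 4 higher and 1 to 7 lower with a median of -0.14 to -0.08. Genotype and interaction had 0 calls in all of these. With the replicate number as a block 11 were higher and 6 lower. No general pairing by number was seen: 30 pairs of equal number correlated with a median r of 0.00 (-0.23 to 0.32). Of these pairs 5 were above 0.1, and 5 of 20 arrays correlated best with their own number. A median over pairs cannot exclude that some mice of equal number belong together. Signals near the scanner ceiling limit what the 5 brightest members can show.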

Other observations

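Several members are in common use as reference genes for quantitative PCR. The following were picked for that use after their values were seen. After B[a]P exposure Rpl13a changed by 0.56, Rpl19 by 0.46 and Rps18 by 0.34 on its bright probe, and all 3 passed the test. Rplp0 had -0.17 on one probe and -0.01 on the other, and Rpl13 had 0.06 (adjusted p = 0.706), and neither passed.

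Chromosome 7 holds 8 members, of which 2 rose (Rpl13a and Rps3) and 4 fell (Rpl28, Rps13, Rps16 and Rps19). Chromosome 9 holds 7, of which 2 rose and 1 fell, and the 4 members on each of chromosomes 2, 3, 4, 10, 15 and X had no call. Rpl5, which rose, had no chromosome in the gene table and was left out of these counts. Its start region lies on chromosome 5, where the 4 counted members had no call. The calls of Rpl28, Rps16 and Rps19 were lost when any of 16, 7 and 9 single mice was left out. Over all probes 3.57% were higher and 2.12% lower, and among the brightest probes, as defined above, 10.6% and 5.48%. Shares over all probes of single chromosomes are not given here. The distribution over chromosomes was seen after the values were known and was not tested.

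Rpl32, chosen after its values were seen, had a change of 0.38 ± 0.13 (SE) and did not pass the test (limma, adjusted p = 0.0767), although Rpl35a, Rps18 and Rpsa passed with smaller changes. Without Xpc-/- control 1 and 2 the change of Rpl32 was 0.21 (adjusted p = 0.189).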
